A study of Mus musculus with 6 samples.

Results

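The replication-dependent histone genes are the clustered, multicopy genes that supply histone protein while DNA is copied. They were taken here as every gene whose symbol in the authors' deposited comparison begins with Hist1h, Hist2h, Hist3h or Hist4, which gave 45 of the 14338 genes of that table. All 45 were present among the 46078 gene rows of the deposited count table. They comprise 5 genes of the linker histone H1, 6 of H2A, 12 of H2B, 9 of H3 and 13 of H4. By position 39 lie in the Hist1 cluster on chromosome 13, 3 in Hist2 on chromosome 3, 2 in Hist3 on chromosome 11 and 1, Hist4h4, on chromosome 6. The count table held 23 further histone-named genes that are not in that comparison, many of them H2A genes, and these are not members. Of the 23, 11 had no reads in any library, among them Hist1h2ao, Hist1h2ap, Hist2h2aa1 and Hist2h2aa2. The 23 together had 672 reads, against 158555 for the 45 members. Class values below describe the members and not every gene of a class. The libraries came from the colon of wild type and Lingo2-/- mice, 3 per genotype, all 2 months old and kept under naive conditions. Epithelial cells were detached with EDTA and DTT, total RNA was extracted, and ribosomal RNA was removed with the Ribo-Zero Gold version of a stranded TruSeq kit. Lingo2 encodes a leucine-rich repeat membrane protein, and genotype is the only factor the labels give. The sources used here give neither the kind of Lingo2 allele nor the strain.

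Histone H2A, H2B, H3 and H4 form the core around which DNA is wrapped, and H1 binds the DNA where it enters and leaves that core. The mRNAs of the clustered genes are made mainly in S phase and are not polyadenylated. They end in a stem-loop that is bound by the stem-loop binding protein Slbp and is trimmed with the help of the U7 small nuclear ribonucleoprotein. In the colon, dividing cells lie in the lower crypt, and surface cells have left the cycle. A library of total RNA, unlike one selected for polyadenylated RNA, can hold these messages.

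The 3' ends show which genes carry that hallmark in the annotation. A stem of 6 base pairs that starts with GG and ends with CC around a loop of 4 bases was sought in the 3' untranslated regions of GENCODE M21 transcripts. It was found in 35 of the 45 genes (77.8%) and in 3.38% of the 21906 other protein-coding genes. It began 21 to 54 bases after the stop codon. Of the 10 genes without one, 7 have annotated transcripts that end at the stop codon. All 23 such stem-loops outside H4 had stems that begin GGCTC. All 12 found among the 13 H4 genes began GGCCC (10 genes) or GGTCC (2 genes). The 6 sequences below show the commonest form of the non-H4 classes and the A-loop and T-loop forms. They also show the stem-loops of 3 H4 genes on which later results turn. The label 3' end names the stem-loop with its flanking bases and not the end of the annotated transcript. Annotated transcripts run on past the stem-loop by 3 bases in Hist1h4m, 31 in Hist1h4n, 57 in Hist2h2ac and 74 in Hist1h3c. In Hist1h1c they run on by 840 bases and in Hist4h4 by 2445. Capitals mark the stem-loop.
Hist1h1c 3' end: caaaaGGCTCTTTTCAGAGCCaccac
Hist1h3c 3' end: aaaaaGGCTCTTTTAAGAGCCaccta
Hist2h2ac 3' end: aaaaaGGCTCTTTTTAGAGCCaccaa
Hist4h4 3' end: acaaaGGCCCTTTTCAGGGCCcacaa
Hist1h4m 3' end: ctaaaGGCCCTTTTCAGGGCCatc
Hist1h4n 3' end: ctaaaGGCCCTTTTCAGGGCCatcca

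The promoter windows of the genes that passed the genotype test below are shown next, from RefSeq on GRCm38.p6, 250 bases before to 50 after the start. RefSeq windows were matched for 40 of the 45 genes. Capitals mark the motifs searched on both strands. These were CCAAT, the TATA box written TATAAA, the octamer sequence ATTTGCAT, the H1 box core AAACACA and the H4 site core GGTCCG. The window of Hist1h4n differed from that of Hist1h4m at 1 of 299 aligned bases and is not repeated. That base lies after the start and is the G36A given below for the transcripts.
Hist1h1a promoter, chr13:23763418-23763717, plus strand: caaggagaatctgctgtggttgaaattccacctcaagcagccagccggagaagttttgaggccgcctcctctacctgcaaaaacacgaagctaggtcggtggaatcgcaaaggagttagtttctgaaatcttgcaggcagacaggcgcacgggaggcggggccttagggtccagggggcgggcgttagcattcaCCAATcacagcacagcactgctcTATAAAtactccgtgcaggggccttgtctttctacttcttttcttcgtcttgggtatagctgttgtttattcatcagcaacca
Hist1h1b promoter, chr13:21780576-21780875, minus strand: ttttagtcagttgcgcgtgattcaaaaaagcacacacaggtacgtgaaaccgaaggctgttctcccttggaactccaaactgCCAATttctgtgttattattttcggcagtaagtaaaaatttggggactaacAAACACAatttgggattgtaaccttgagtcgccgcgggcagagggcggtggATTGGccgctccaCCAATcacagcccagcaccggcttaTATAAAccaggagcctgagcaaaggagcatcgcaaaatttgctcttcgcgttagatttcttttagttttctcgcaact
Hist4h4 promoter, chr6:136804382-136804681, minus strand: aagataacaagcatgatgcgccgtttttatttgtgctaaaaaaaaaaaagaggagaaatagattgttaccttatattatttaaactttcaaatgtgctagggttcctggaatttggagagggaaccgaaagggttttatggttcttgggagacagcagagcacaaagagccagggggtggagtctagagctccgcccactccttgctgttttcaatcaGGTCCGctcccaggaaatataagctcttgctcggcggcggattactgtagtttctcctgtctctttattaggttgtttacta
Hist1h4m promoter, chr13:21811496-21811795, plus strand: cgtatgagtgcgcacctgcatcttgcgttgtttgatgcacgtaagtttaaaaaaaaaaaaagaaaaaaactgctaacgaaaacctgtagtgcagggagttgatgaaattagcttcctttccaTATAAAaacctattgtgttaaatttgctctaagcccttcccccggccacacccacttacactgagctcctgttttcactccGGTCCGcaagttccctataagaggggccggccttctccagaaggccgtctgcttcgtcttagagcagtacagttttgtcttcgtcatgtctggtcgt
CCAAT occurred in every H1 (5), H2A (6), H2B (10) and H3 (7) window but in 3 of 12 H4 windows, against 37.9% of the windows of 27025 genes. GGTCCG occurred in 11 of 12 H4 windows and 1 of 7 H3 windows, against 8.39% of all. ATTTGCAT occurred in 5 of 6 H2A and 3 of 10 H2B windows, against 1.75% of all. AAACACA occurred in 4 of 5 H1 windows, not in that of Hist1h1a, and in 1 of 6 H2A windows, against 7.14% of all. TATAAA occurred in 28 of 40 windows, against 14.2% of all. These matches describe letters in the windows shown and not bound sites.

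Copies within a class resemble each other closely, and this limits what a read can be assigned to. Pairwise identity of coding sequences of equal length had a median of 96.4% for H2A, 97.4% for H2B, 97.8% for H3 and 93.9% for H4. The share of 75-base stretches of a gene's transcripts that occur in no other annotated gene had a median of 98.5% in H1, 66.8% in H2A, 57.9% in H2B, 53.9% in H3 and 75.4% in H4. It ranged from 6.53% in Hist1h3h, chosen after the values were seen, to 100%. All 6 H2A genes overlap another annotated gene on the opposite strand over part of their exons. Hist3h2a also overlaps Trim17 and Hist1h2ac overlaps Gm24991 on the same strand. Exonic bases overlapped by any gene ranged from 138, as in Hist1h2ae (of 704), to 708 in Hist3h2a (of 2146). The strand setting of the counting is not given, so it is not known whether reads within these overlaps were told apart. Hist1h1e and Hist1h2be share 496 exonic bases on the same strand. Single copies with a low unique share are therefore uncertain, and sums over each class are given beside them. Alignments to several places were counted apart from all genes, so the sums do not recover them.

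Wild type libraries held 25010618 to 28029583 gene reads and Lingo2-/- libraries 7060769 to 13047682, which makes low genes less precise in the mutant. The limit that a count of 0 allows, 3 reads, corresponds to 0.107 to 0.120 CPM (reads scaled to the plain library size) in wild type, and to 0.230 to 0.425 CPM in Lingo2-/- libraries, for counting error only. All other CPM are scaled with TMM library sizes. The share of gene reads on mitochondrial genes also separated the genotypes, at 45.3% to 48.4% in wild type and 35.7% to 39.8% in the mutant, as did reads outside any annotated feature (18.5% to 22.1% and 23.6% to 27.6% of alignments), and their part in the results was not tested. Lingo2, with 7 reads in wild type replicate 2, 1 read each in Lingo2-/- replicates 1 and 2 and 0 in the other libraries, was too low to check the labels. All 12 epithelial markers were detected and none was called, with summed levels of 14682 to 14893 CPM and 13404 to 15467 CPM. All 12 markers of T cells and intraepithelial lymphocytes were lower in Lingo2-/- libraries (median log2 fold change −1.73), with summed levels of 448 to 539 CPM and 190 to 218 CPM, and 10 to 12 were called when 1 library was left out. Of 6 macrophage and dendritic cell markers 2 were called lower (33.3%, against 1.52% of all genes tested), Itgax (−0.99 ± 0.20) and Tyrobp (−1.11 ± 0.24). Leaving out wild type replicate 2 ended both calls (edgeR adjusted p = 0.0749 and 0.0516), as did leaving out Lingo2-/- replicate 2 (0.0875 and 0.0585) or 3 (0.1002 and 0.0969). Leaving out wild type replicate 3 (0.0573) or Lingo2-/- replicate 1 (0.0574) ended that of Tyrobp. None of 7 B and plasma cell, 6 fibroblast (median −1.32) or 5 erythrocyte markers (−0.82) was called, and no marker was at 0 reads in all libraries. The labels number the replicates without saying that they came from separate animals, so a p-value here covers the variation among libraries, and that can be technical in part. In this bulk fraction fewer cells of a type and less RNA per cell cannot be told apart.

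In wild type libraries the 45 genes together took 1539, 1615 and 1669 CPM. Per kilobase of exon and summed over genes, mean wild type levels were 553 CPM for H4, 491 for H1, 469 for H2B, 186 for H3 and 19.1 for H2A. Per kilobase of coding sequence H1 stood at 1202, H4 at 1175, H2B at 844, H3 at 296 and H2A at 34.6 CPM. These sums are not corrected for the share of each gene that can be told apart from other genes, which is low in H3, so their order describes assigned reads and not transcript abundance. Across the 45 genes that share and the log2 mean CPM had a Spearman correlation of 0.32 and a Pearson correlation of 0.31, as a description only. Assigned reads of the members were lowest in H2A and next lowest in H3 on both scales, while H1 and H4 changed places. Among single genes Hist1h1c (192 CPM per kilobase of exon), Hist1h4f (130) and Hist1h2bb (118) stood high in wild type, and Hist1h2ac (0.556) stood low.

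Of the 45 genes 4 were called between genotypes, all 4 lower in Lingo2-/- libraries. These were the linker histone genes Hist1h1a and Hist1h1b and the H4 genes Hist4h4 and Hist1h4m. The 4 are 8.89% of the members, against 2.57% of all 16757 genes tested called in either direction and 1.52% called lower. Calls were made with edgeR (quasi-likelihood F test, Benjamini-Hochberg adjusted p under 0.05). Hist1h4m shares most of its sequence with Hist1h4n. Tested as 1 gene, the sum of Hist1h4m and Hist1h4n was not called (0.27 ± 0.35, edgeR adjusted p = 0.728). No member was called higher, against 1.04% of all genes, and 7 members (15.6%) had an unadjusted p under 0.05, against 18.6% of all genes. DESeq2 called 5 members, the same 4 and Hist1h4n (higher), against 3.83% of all genes. The authors' deposited table, made with DESeq2 per the submitters' processing notes, holds the same 5 members among 675 called genes of 14338. The median log2 fold change over the 45 members was −0.13, against 0.00098 over all genes tested, and 25 of 45 lay below 0. The class medians were −0.26 for H1, 0.82 for H2A, −0.22 for H2B, 0.11 for H3 and 0.03 for H4.

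**Figure D1:**
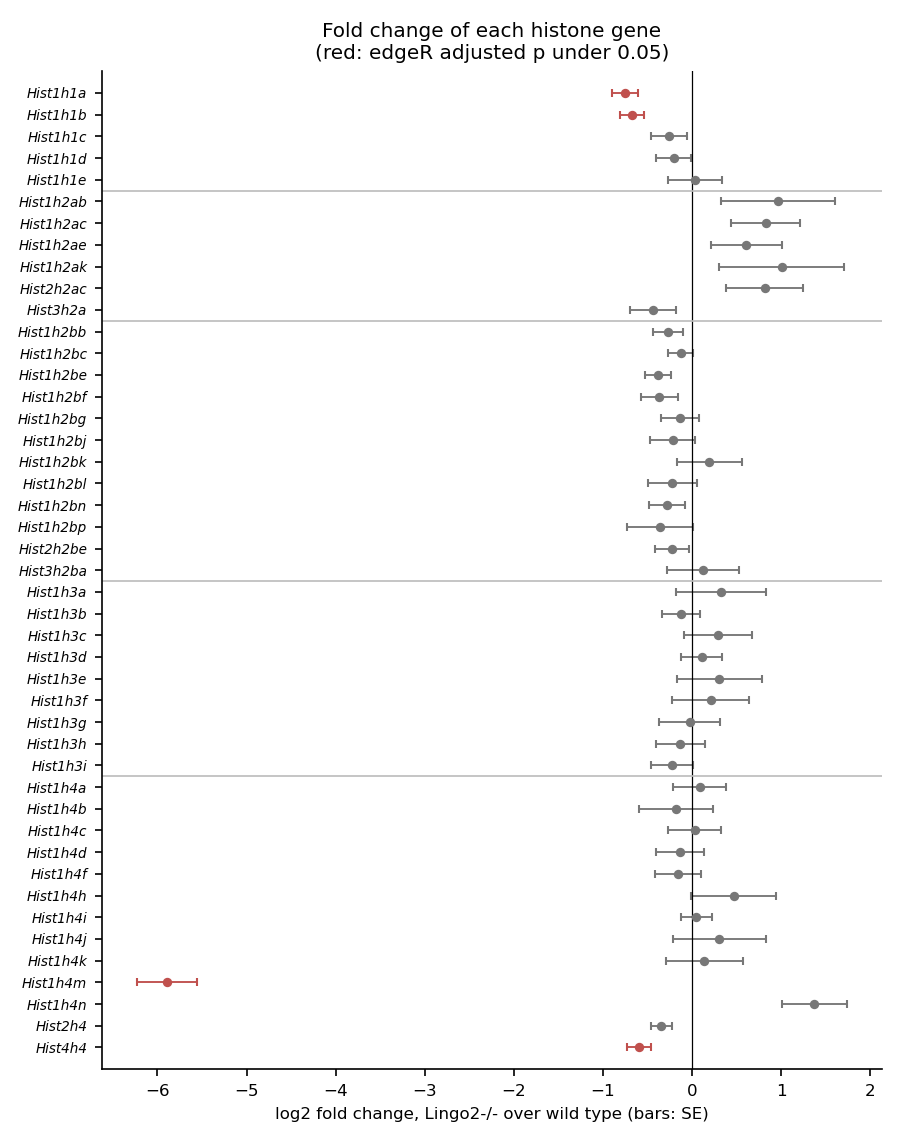
log2 fold change of each of the 45 histone genes, Lingo2-/- over wild type, with SE bars, grouped by class and with the genes of adjusted p under 0.05 in red. The 4 red points lie below 0, and Hist1h4m lies farthest from 0 at −5.89. The sum of Hist1h4m and Hist1h4n, at 0.27, is not shown.

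Hist1h1a and Hist1h1b encode linker histone variants whose abundance is known to differ between cell types. Hist1h1a stood at 63.5, 68.9 and 72.3 CPM in wild type replicates 1, 2 and 3 and at 40.3, 31.0 and 50.2 CPM in Lingo2-/- replicates 1, 2 and 3. Each Lingo2-/- library lay below each wild type library, and the difference was −0.75 ± 0.15 (log2, SE, n = 3 per genotype, edgeR adjusted p = 0.0266). Hist1h1b stood at 66.0, 85.7 and 77.1 CPM and at 45.5, 40.9 and 56.9 CPM (−0.68 ± 0.13, edgeR adjusted p = 0.0220). Its groups did not overlap either. The other H1 genes did not pass. Hist1h1c stood at 317, 260 and 321 CPM in wild type and at 169, 285 and 298 CPM in Lingo2-/- replicates. These groups overlapped, and only Lingo2-/- replicate 1 was below all wild type libraries (−0.26 ± 0.20, edgeR adjusted p = 0.540). Hist1h1d was at −0.21 ± 0.20 (edgeR adjusted p = 0.622) and Hist1h1e at 0.03 ± 0.31 (0.968), with the same replicate lowest in both. The lymphocyte markers moved the same way as these genes (190 to 218 CPM in Lingo2-/- against 448 to 539 CPM in wild type libraries), and their part in the result was not tested. Summed, Hist1h1a and Hist1h1b stood at 129, 155 and 149 CPM and at 85.8, 71.9 and 107 CPM, without overlap. They made up 17.4%, 20.9% and 17.2% of H1 reads in wild type and 18.6%, 9.75% and 13.8% in Lingo2-/- libraries, which overlapped. The call of Hist1h1a was lost without wild type replicate 2 (edgeR adjusted p = 0.0714), wild type replicate 3 (0.0507), Lingo2-/- replicate 1 (0.0848) or Lingo2-/- replicate 2 (0.0536). That of Hist1h1b was lost without wild type replicate 2 (0.0572), Lingo2-/- replicate 1 (0.0720) or Lingo2-/- replicate 2 (0.0879).

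Summed H1 reads stood at 745, 738 and 870 CPM in wild type and at 461, 738 and 778 CPM in Lingo2-/- libraries, with a difference of −0.29 ± 0.25 on the log2 scale. The groups overlapped, with Lingo2-/- replicate 1 lowest. No p is given for the sums, since the members were chosen with results known.

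None of the 6 H2A members, which had the fewest assigned reads of the member classes, passed. Hist1h2ab stood at 2.48, 3.32 and 2.09 CPM in wild type and at 1.31, 6.48 and 8.56 CPM in Lingo2-/- libraries (0.96 ± 0.64, edgeR adjusted p = 0.478). Hist2h2ac stood at 2.21, 1.83 and 2.73 CPM and at 1.59, 4.61 and 6.25 CPM (0.81 ± 0.44, edgeR adjusted p = 0.365). In both genes Lingo2-/- replicate 1 lay below and Lingo2-/- replicates 2 and 3 lay above all wild type libraries, so the groups overlapped. Hist1h2ak (1.01 ± 0.70) and Hist1h2ac (0.83 ± 0.39) were arranged in the same way, and Hist3h2a was at −0.44 ± 0.26. The H2A sum was 13.2, 14.5 and 12.9 CPM in wild type and 8.76, 24.3 and 31.9 CPM in Lingo2-/- libraries (0.49 ± 0.57). As a share of all member reads, H2A made up 0.861%, 0.901% and 0.773% in wild type and 0.918%, 1.497% and 1.75% in Lingo2-/- libraries. These shares did not overlap between genotypes, but the 0.918% of Lingo2-/- replicate 1 (127 H2A reads) lay close to the 0.901% of wild type replicate 2. The shares of H1, H2B, H3 and H4 overlapped. The H2A shares leave out H2A genes of the count table that are not members, such as Hist1h2af and Hist1h2ai. They had 24 and 22 reads in wild type replicate 2 and 1 and 2 reads in Lingo2-/- replicate 1. The separation is therefore not shown for H2A as a whole, and it was not tested.

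None of the 12 H2B genes, which pair with H2A in the nucleosome core, passed. Hist1h2bc, the most abundant, stood at 96.6, 86.5 and 96.8 CPM in wild type and at 64.8, 97.2 and 94.6 CPM in Lingo2-/- libraries (−0.13 ± 0.14, edgeR adjusted p = 0.661). Hist1h2be stood at 42.8, 46.2 and 45.7 CPM and at 26.1, 35.8 and 42.2 CPM (−0.38 ± 0.15, edgeR adjusted p = 0.199). All 3 Lingo2-/- libraries lay below the wild type libraries for Hist1h2be, and the groups of Hist1h2bc overlapped. Hist1h2bb was at −0.27 ± 0.17 (edgeR adjusted p = 0.427) and Hist1h2bf at −0.37 ± 0.21 (0.366). The H2B sum was 306, 336 and 323 CPM and 203, 301 and 339 CPM (−0.23 ± 0.23), with groups that overlapped.

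None of the 9 H3 genes passed, and in all 9 Lingo2-/- replicate 1 was the lowest of the 6 libraries. Hist1h3e stood at 21.02, 23.3 and 20.9 CPM in wild type and at 11.3, 29.8 and 41.3 CPM in Lingo2-/- libraries (0.31 ± 0.48, edgeR adjusted p = 0.783). Hist1h3c stood at 15.8, 19.5 and 16.1 CPM and at 10.6, 23.7 and 30.3 CPM (0.29 ± 0.38, edgeR adjusted p = 0.735). The 3 Lingo2-/- libraries of both genes span the wild type range on either side. Hist1h3a was at 0.32 ± 0.51, Hist1h3f at 0.21 ± 0.43 and Hist1h3i at −0.23 ± 0.24, none of them past the test. The H3 sum was 113, 137 and 115 CPM and 68.7, 148 and 193 CPM (0.05 ± 0.46).

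Among the 13 H4 genes Hist4h4, the only member outside the Hist1 to Hist3 clusters, fell. It stood at 29.3, 33.8 and 30.4 CPM in wild type and at 16.9, 20.3 and 25.1 CPM in Lingo2-/- libraries (−0.60 ± 0.13, edgeR adjusted p = 0.0388), and the groups did not overlap. Its call was lost without wild type replicate 1 (edgeR adjusted p = 0.0605), 2 (0.108) or 3 (0.0525), and without Lingo2-/- replicate 1 (0.0965) or 2 (0.126). The abundant genes Hist1h4d, Hist1h4c and Hist1h4f did not pass. Hist1h4d stood at 81.0, 78.9 and 71.3 CPM and at 42.8, 77.2 and 91.4 CPM (−0.14 ± 0.27, edgeR adjusted p = 0.827). Hist1h4c was at 0.03 ± 0.30 and Hist1h4f at −0.16 ± 0.25. In all 3 Lingo2-/- replicate 1 was lowest. The H4 sum was 363, 388 and 348 CPM and 213, 414 and 479 CPM (−0.07 ± 0.36). It was at −0.04 without Hist1h4m and at −0.30 over the H4 genes with at least 90% unique stretches (Hist1h4d, Hist2h4 and Hist4h4).

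Hist1h4m showed the largest difference, and its near-identical neighbour Hist1h4n the opposite arrangement. The reads of Hist1h4m numbered 179, 198 and 202 in wild type and 1, 1 and 2 in Lingo2-/- replicates 1, 2 and 3. In CPM this was 8.23, 7.38 and 8.604 against 0.069, 0.12 and 0.23, and every Lingo2-/- count lay under the 3 reads a count of 0 allows. Pooled over libraries, wild type was 62.6-fold higher (95% exact interval 24.3 to 231, counting error only), and the fitted log2 fold change, which depends on the prior count, was −5.89 ± 0.33 (edgeR adjusted p = 5.61e-06). Hist1h4m was called whichever library was left out. Hist1h4n stood at 6.85, 7.35 and 6.81 CPM in wild type and at 9.38, 19.9 and 26.3 CPM in Lingo2-/- libraries. All 3 Lingo2-/- libraries lay above the wild type libraries, with Lingo2-/- replicate 1 nearest to them (1.37 ± 0.36, edgeR adjusted p = 0.120).

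The 2 genes lie 19619 bases apart on opposite strands of chromosome 13 (Hist1h4m at chr13:21811746-21812147, Hist1h4n at chr13:21831767-21832196, GRCm38). Their coding sequences of 312 bases are identical. Over the 402 bases in which the annotated transcripts align they differ at 1 base, G36A, counted from the 5' end of the Hist1h4m transcript with the Hist1h4m base first. It lies 3 bases before the start codon. The 25 bases around it are shown with that base in capitals.
Hist1h4m 5' leader: agttttgtcttcGtcatgtctggtc
Hist1h4n 5' leader: agttttgtcttcAtcatgtctggtc
Reads that do not cover this base, or sequence beyond the aligned part, match both genes. Of 75-base stretches, 11.0% in Hist1h4m and 16.6% in Hist1h4n occur in no other annotated gene. Hist1h4m took 54.6%, 50.1% and 55.8% of the reads of the pair in wild type and 0.730%, 0.621% and 0.873% in Lingo2-/- libraries. Added together, the pair stood at 15.1, 14.7 and 15.4 CPM in wild type and at 9.45, 20.1 and 26.5 CPM in Lingo2-/- libraries. Tested as 1 gene in the fit over all genes, the sum was at 0.27 ± 0.35 (edgeR adjusted p = 0.728), and the groups overlapped. The assignment of reads between the copies was not tested further.

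**Figure D2:**
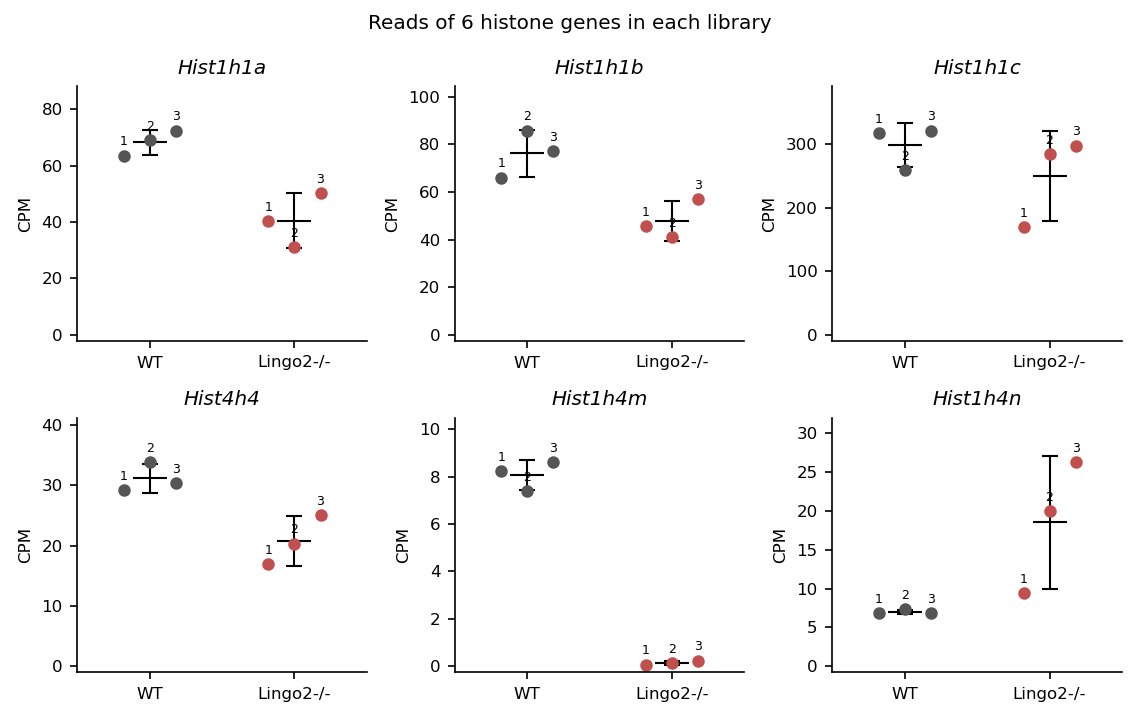
CPM of 6 histone genes in each library, wild type in grey and Lingo2-/- in red, points numbered by replicate, with the mean and SD in black. The groups of Hist1h1a, Hist1h1b, Hist4h4, Hist1h4m and Hist1h4n do not overlap, and those of Hist1h1c do.

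Lingo2-/- replicate 1 stood apart from Lingo2-/- replicates 2 and 3 across most of the members. It was the lowest of the 6 libraries in 38 of 45 genes (84.4%), against 16.7% of all genes tested. Its log2 level lay below the mean of the other Lingo2-/- libraries in 43 of 45 genes, against 8251 of all 16757 genes tested. Over the members the median deviation was −0.94, against 0.0045 over all genes. The median deviation was −0.73 in H1, −1.66 in H2A, −0.66 in H2B, −1.33 in H3 and −0.99 in H4. In 16 of 45 members (35.6%) it lay below all wild type libraries while Lingo2-/- replicates 2 and 3 lay above them, against 1.84% of all genes. All members together stood at 954, 1624 and 1821 CPM in Lingo2-/- replicates 1, 2 and 3. Their coefficient of variation was 31.0% there and 4.05% in wild type.

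**Figure D3:**
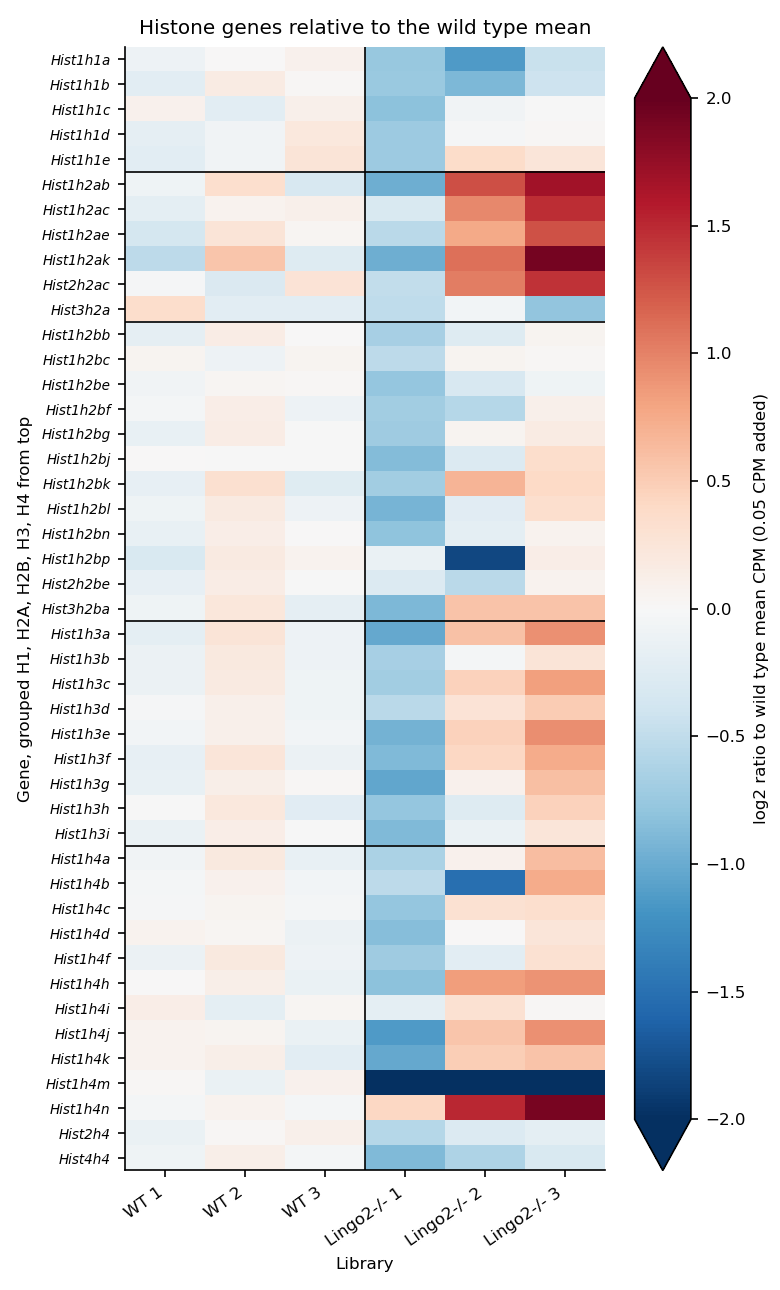
log2 ratio of each histone gene to its wild type mean in each of the 6 libraries, genes grouped by class from H1 at the top to H4, with colours saturating at 2 in either direction. The column of Lingo2-/- replicate 1 stands out in blue (lower). It lies below every wild type library in 43 of 45 genes (95.6%), against 31.3% of all genes tested. Hist1h4m is blue in all 3 Lingo2-/- columns.

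The genotype difference of the sums depended on single libraries and on the scaling. The sum of all members differed by −0.19 ± 0.29 (log2), by 0.10 without Lingo2-/- replicate 1 and by 0.05 with plain library sizes, a scaling that moved the median of all genes from 0.0029 to 0.24. For H1 these 3 values were −0.29, −0.05 and −0.05. For H2A they were 0.49, 1.04 and 0.72, for H2B −0.23, −0.0093 and 0.011, for H3 0.05, 0.48 and 0.29, and for H4 −0.07, 0.28 and 0.17. Leaving out Lingo2-/- replicate 3 gave −0.37 for all members, −0.42 for H1, 0.11 for H2A, −0.38 for H2B, −0.26 for H3 and −0.30 for H4. Leaving out Lingo2-/- replicate 2 gave −0.29, −0.39, 0.31, −0.29, −0.07 and −0.20 in the same order. With wild type replicate 1, 2 or 3 left out, H3 was at −0.0033, 0.14 and 0.0081 and H4 at −0.08, −0.03 and −0.11, and the other sums moved by less than 1.5 times. Without Lingo2-/- replicate 1, 1 member was called lower (Hist1h4m) and 8 higher, together 9 of 45 members (20%) against 1.96% of all genes in that fit. The 8 were Hist1h2ab (1.504), Hist2h2ac (1.27), Hist1h3a (0.76), Hist1h3c (0.65), Hist1h3e (0.71), Hist1h4h (0.86), Hist1h4j (0.74) and Hist1h4n (1.72), of which Hist1h4h and Hist1h4j were chosen after their values were seen. Without wild type replicate 1, 2 or 3 the members called were 3, 1 and 2, all lower, against 2.05%, 1.91% and 4.2% of all genes. Without Lingo2-/- replicate 2 or 3 they were 1 and 4, all lower, against 0.976% and 0.999%. Hist1h1a, Hist1h1b and Hist4h4 were at −0.75, −0.65 and −0.46 without Lingo2-/- replicate 1. With plain library sizes they were at −0.54, −0.44 and −0.36, so their direction did not turn.

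**Figure D4:**
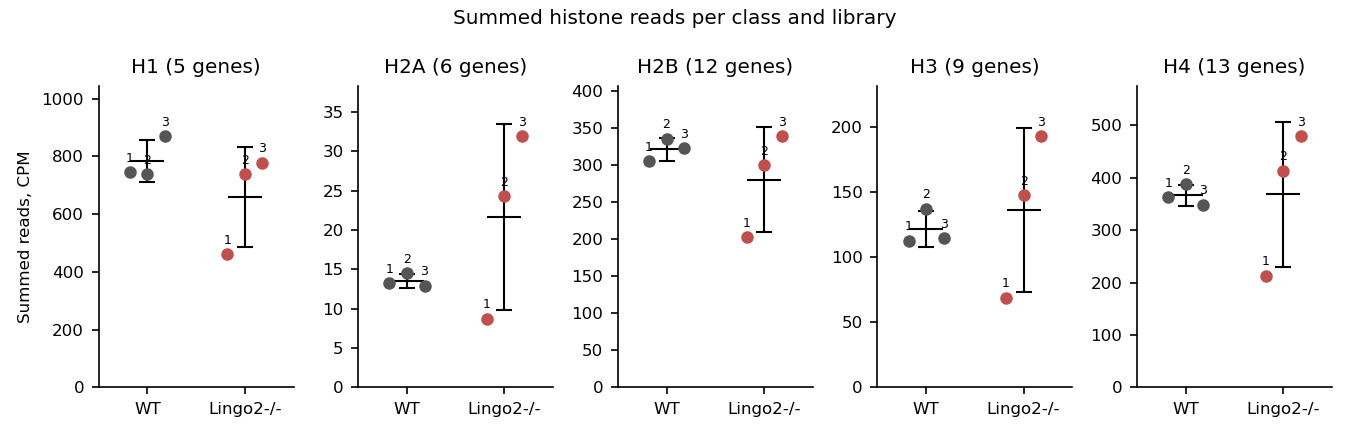
Summed CPM of each histone class in each library, wild type in grey and Lingo2-/- in red, points numbered by replicate, with the mean and SD in black, each axis starting at 0. Lingo2-/- replicate 1 is the lowest point in all 5 classes, and the genotypes overlap in each.

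Groups did not overlap, with Lingo2-/- lower, in 6 of 45 members (13.3%): Hist1h1a, Hist1h1b, Hist1h2be, Hist1h4m, Hist2h4 and Hist4h4, against 11.8% of all genes. They did not overlap in the other direction in 1, Hist1h4n (2.22%), against 12.3% of all genes. Hist2h4, chosen after its values were seen, was at −0.35 ± 0.12 (edgeR adjusted p = 0.147). The 8 members with at least 90% unique stretches all lay below 0, against 49.9% of all genes tested, with a median of −0.30. Of the 8, 3 were called (37.5%, against 2.57% of all genes), namely Hist1h1a, Hist1h1b and Hist4h4. Hist1h4d turned to 0.12 without Lingo2-/- replicate 1. With plain library sizes Hist1h1d (0.0078), Hist2h2be (0.0090) and Hist1h4d (0.042) lay above 0, where the median of all genes was 0.24. The summed reads of these 8 members differed by −0.35 (log2), against −0.19 for all members, and those of H1 by −0.36. In H2B only Hist2h2be, named outside the rule, reached 90%, so the H2B value of −0.23 is that of 1 gene. It stood at a mean of 6.16 CPM in wild type and 5.27 CPM in Lingo2-/- libraries (edgeR adjusted p = 0.555). The 37 others had a median of 0.03 and 17 below 0 (45.9%), and 1 was called (2.70%), Hist1h4m. Across the 45 genes, which are not independent replicates, the unique share and the log2 fold change had a Spearman correlation of −0.19 and a Pearson correlation of 0.15. Unique alignments also differed by genotype, since alignments to several places were 36.5% to 36.9% of the total in wild type and 30.8% to 33.9% in Lingo2-/- libraries. The part of this in the results was not tested.

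Genes that process, carry or accompany the histones were examined next. Of 21 tested genes of histone mRNA processing none was called. Slbp, named outside the rule, stood at 23.2, 23.8 and 23.3 CPM in wild type and at 25.2, 20.9 and 23.9 CPM in Lingo2-/- libraries. Snrpe, a shared Sm core protein, was at −0.39 ± 0.10 (edgeR adjusted p = 0.0595), and Lsm11, a U7 subunit, at 0.52 ± 0.15 (0.0944). None of 10 replication-independent histone genes was called, and 1 was without wild type replicate 2. H2afj, an H2A variant, was at 0.66 ± 0.16 (edgeR adjusted p = 0.0509), and H2afy2, a macroH2A, at −0.89 ± 0.36 (0.212). Of 20 histone chaperone and import genes 1 was called (5%, against 2.57% of all genes tested). This was the importin Ipo4, which rose from 17.7, 17.7 and 17.7 CPM to 25.3, 21.3 and 25.7 CPM (0.45 ± 0.10, edgeR adjusted p = 0.0448). Its call was lost without any 1 of the 6 libraries (edgeR adjusted p = 0.0536 to 0.156).

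None of 31 S phase genes was called, with a median of −0.10 and summed levels of 459, 474 and 444 CPM in wild type and 398, 399 and 450 CPM in Lingo2-/- libraries. Mcm3, a subunit of the replicative helicase, was at −0.40 ± 0.12 (edgeR adjusted p = 0.0925), and Pola1, the catalytic subunit of DNA polymerase alpha, at −0.40 ± 0.12 (0.0981). Of 20 mitosis genes 1 was called (5%, against 2.57% of all genes tested). This was Plk1, a mitotic kinase, which rose from 33.1, 47.3 and 41.7 CPM to 53.4, 67.3 and 62.7 CPM (0.58 ± 0.13, edgeR adjusted p = 0.0480). Its call was lost without wild type replicate 1 (edgeR adjusted p = 0.0894) or 3 (0.0756) and without Lingo2-/- replicate 2 (0.162) or 3 (0.161). Summed, the mitosis genes stood at 418, 532 and 477 CPM and at 404, 480 and 534 CPM. Lingo2-/- replicate 1 was the lowest library in 4 of 21 processing genes (19.0%), 10 of 31 S phase genes (32.3%) and 12 of 20 mitosis genes (60%). The share over all genes tested was 16.7%. This replicate was also lowest in 5 of 20 chaperone and import genes and 2 of 10 replication-independent histone genes. Of the marker lists it was lowest in 6 of 6 fibroblast genes, summed at 329 to 971 CPM in wild type and at 223, 494 and 287 CPM in Lingo2-/- libraries. It was lowest in 0 of 12 lymphocyte, 0 of 7 B and plasma cell, 1 of 6 macrophage and dendritic cell, 0 of 5 erythrocyte and 3 of 12 epithelial genes. The part of these cells, and of the cycle genes, in the histone levels was not tested.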

How the data were processed

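Values come from deposited files of 6 libraries. In the authors' count table, whole-number counts per gene are not normalized, with 5 summary lines that name no gene and were left out (no-feature alignments 18.5% to 22.1% in wild type and 23.6% to 27.6% in Lingo2-/-, ambiguous 1.23% to 1.28% and 1.34% to 1.57%, non-unique 36.5% to 36.9% and 30.8% to 33.9%). The authors' deposited comparison holds the mean signal, log2 fold change, test score and p-value columns and a normalized signal per library, which equals the count times 1 factor per library at a relative tolerance of 1e-06 in 100% of values. From it were used the symbols that choose the members and the authors' calls. The submitters' processing notes name Trimmomatic 0.39, STAR, HTSeq, DESeq2 and GRCm38. The sources used here do not give annotation release, strand setting or read length.

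The test was edgeR 4.0.16 under R 4.3.3 (filterByExpr, TMM, robust quasi-likelihood F test of genotype), run over 16757 genes, all 45 members included, with Benjamini-Hochberg adjustment and a threshold of 0.05. DESeq2 1.42.0 was the alternative test. Fold changes are on the log2 scale with SE. Class sums are summed reads as CPM, compared as mean log2 CPM with a prior of 0.5 reads. The script was tested on simulated counts of 16757 genes. Of 100 genes changed 2-fold 68% were recovered, and of 100 changed 4-fold 88%, with 27 false calls. Positions, transcripts and 75-base windows came from GENCODE M21, promoters from RefSeq. Replicate pairs of a genotype differed by a chi-square of 8.40 to 19.4 per degree of freedom, above sampling noise.

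Members and lists were chosen with earlier results of these data known. The text names each called member, the 3 most abundant and 2 most changed members and the smallest p of each class, and from other lists up to 4 called genes or the 2 of smallest p. Alternatives were other scalings, filters, DESeq2, a replicate block, leaving out mitochondrial genes or each library, and sums over other member sets, of which the sums by unique share, by every histone-named gene and without Hist1h4m, and the Hist1h4m pair, were chosen after seeing the data.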

Additional observations from a re-analysis of the deposited data

How the results depend on the processing

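The 4 lower members were called under every scaling and filter tried and with DESeq2, and 1 to 4 were lower when 1 library was left out. No member was higher, against 2 with no filter, 1 with DESeq2 and 0 to 8 with 1 library left out. Over all genes 430 were called, 1493 with no filter and 174 to 674 with 1 library left out. Of related genes 0 were lower, against 1 with upper quartile factors and 7 with no filter. There 2 were higher, against 1 with upper quartile factors, a 1 CPM filter or the replicate block, and 0 to 2 with 1 library left out. Deviations from the genotype mean correlated at −0.13, 0.12 and −0.02 between libraries of replicate number 1, 2 and 3. Wild type 1, 2 and 3 correlated best with Lingo2-/- 3, 2 and 1. With 3 libraries per genotype these values cannot decide whether the replicate numbers pair the libraries. With the replicate block 360 genes and the same 4 members were called, and Hist1h1e was at −0.024 and Hist1h4c at −0.034. The differences of the class sums cannot change under the block, since each replicate number holds 1 library per genotype. Hist1h4m turned to 0.27 when added to Hist1h4n. With 1 library left out, the log2 value of 24 of 45 members took both signs. Among the members named by the rule, it ranged from −0.17 to 0.30 for Hist1h1e, −0.24 to 0.034 for Hist1h2bc, −0.079 to 0.76 for Hist1h3a, −0.054 to 0.65 for Hist1h3c, −0.14 to 0.71 for Hist1h3e, −0.15 to 0.58 for Hist1h3f, −0.51 to 0.056 for Hist1h3i, −0.15 to 0.32 for Hist1h4c, −0.38 to 0.12 for Hist1h4d and −0.46 to 0.067 for Hist1h4f. The cause was not tested. Depth limits the lowest members in the Lingo2-/- libraries, where 3 reads are 0.230 to 0.425 CPM.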
